A study of Mus musculus with 8 samples.

Results

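The genes described here are 34 enzymes and transporters of central carbon metabolism, compared in brain endothelial cells of Flvcr2 heterozygous and Flvcr2 knockout mouse embryos. They were taken by name from a table of raw counts with 24421 rows: 17 genes of glycolysis and lactate handling, 3 of the pentose phosphate pathway, 3 of the pyruvate dehydrogenase complex and 11 of the TCA cycle with its cytosolic partners. All 34 were found and passed the filter on low counts, which left 13540 genes. The rule itself used no measured value, but the members were chosen with earlier results of these data known.

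Glycolysis splits glucose into pyruvate in the cytosol. Pyruvate is then either reduced to lactate by lactate dehydrogenase and carried out of the cell by monocarboxylate transporters, or enters mitochondria, where pyruvate dehydrogenase turns it into the acetyl-CoA that feeds the TCA cycle. The pentose phosphate pathway branches from the first intermediate of glycolysis and yields NADPH and ribose. Endothelial cells are known for relying mainly on glycolysis for their ATP, and brain endothelium is also the tissue through which glucose enters the brain.

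The series holds 8 libraries, 4 from heterozygous and 4 from knockout embryos at E14.5 (embryonic day), all of the C57Bl6 strain. Flvcr2 encodes a membrane transporter. Its mutated allele makes cells express GFP, so both groups carry at least 1 mutant allele, and wild-type embryos were not analysed here. Cells positive for GFP and for CD31, an endothelial surface protein, were sorted by flow cytometry, 2000 to 5000 per library. No label says that libraries of the same genotype are separate embryos, and p-values therefore reflect library-to-library spread that could in part be technical.

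The libraries held 9.11 to 35.9 M counts, and single members were covered by 23 (Hk2) to 105952 counts in a library. Levels are given in CPM, counts scaled to a common library total after TMM correction, as mean ± SD over 4 libraries. A member was called where edgeR's quasi-likelihood test gave an adjusted p under 0.05 over all 13540 genes, and a log2 fold change is knockout against heterozygous, ± its standard error. Flvcr2 itself, listed under its older symbol Mfsd7c, had 427 ± 124 CPM in the heterozygous and 301 ± 73.6 CPM in the knockout libraries with overlapping values (log2 fold change -0.50 ± 0.24, adjusted p = 0.209). Its level therefore does not check the labels. All 8 endothelial markers were present (summed level 4342 to 7612 CPM in the heterozygous and 5185 to 7217 CPM in the knockout libraries), and 1 of the 8, Emcn, was called, higher in knockout.

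Markers of other cell types differed between the groups, which bears on every result below. In the heterozygous libraries the 8 neuronal markers summed to 261 to 1664 CPM, against 83.3 to 244 CPM in the knockout libraries, and 6 of the 8 were called lower. Of the radial glia markers 3 of 8 were called lower (summed 1301 to 1414 against 1319 to 1564 CPM), of the pericyte and smooth muscle markers 2 of 8 (162 to 278 against 20.5 to 174 CPM), of the microglial markers 1 of 8 (468 to 1366 against 123 to 795 CPM) and of the erythroid markers 2 of 4 tested (228 to 611 against 17.6 to 51.8 CPM, with Hba-a1 at 0 in all libraries). The radial glia sum was not lower in knockout. In that list Vim (868 ± 118 against 1059 ± 124 CPM) and Nes (206 ± 44.5 against 264 ± 36.7 CPM) went up and were not called. The rest of the radial glia list had negative log2 fold changes. None of the 6 fibroblast markers was called. The mean log2 CPM of the neuron, radial glia, pericyte, microglia and erythroid lists, here the other-cell score, was 5.07 to 5.87 in the heterozygous and 2.59 to 3.73 in the knockout libraries, with no overlap. In bulk samples such as these, fewer cells of a type and less RNA per cell cannot be told apart.

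Promoter sequences are shown for the 3 members at the lactate step, on which the results turn. The 250 bases before each annotated start come from RefSeq (GRCm38.p6) and are written 5′ to 3′ along the gene. Capitals mark the core of the hypoxia response element, searched as ACGTG or GCGTG on both strands, and the E-box CACGTG, whose letters contain ACGTG on either strand. Ldha has a pair of annotated windows, at chr7:46845554-46845803 and chr7:46846832-46847081 on the plus strand. For 39 of 51 member windows, the 40 bases after the start lay in the first 400 bases of a GENCODE transcript of the gene. The upstream Ldha window did not match in this way, while the other windows printed here did. Slc16a3 has a window at chr11:120948817-120949066 on the plus strand, and Ldhb one at chr6:142507958-142508207 on the minus strand.
Ldha, upstream start: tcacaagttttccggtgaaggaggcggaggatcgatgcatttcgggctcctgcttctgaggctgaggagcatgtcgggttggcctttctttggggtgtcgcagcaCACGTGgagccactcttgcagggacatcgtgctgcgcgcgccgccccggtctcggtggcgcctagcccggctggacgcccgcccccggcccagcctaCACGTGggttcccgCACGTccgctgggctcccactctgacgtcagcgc
Ldha, downstream start: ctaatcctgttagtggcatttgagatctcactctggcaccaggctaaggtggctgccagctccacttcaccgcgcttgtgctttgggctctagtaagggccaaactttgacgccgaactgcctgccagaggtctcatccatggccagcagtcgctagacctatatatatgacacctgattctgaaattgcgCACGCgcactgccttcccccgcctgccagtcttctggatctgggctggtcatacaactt
Slc16a3: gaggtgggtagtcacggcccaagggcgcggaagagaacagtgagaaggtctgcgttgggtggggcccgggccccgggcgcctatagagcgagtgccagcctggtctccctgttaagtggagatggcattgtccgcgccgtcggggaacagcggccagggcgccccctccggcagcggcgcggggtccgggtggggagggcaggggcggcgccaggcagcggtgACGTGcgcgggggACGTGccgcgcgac
Ldhb: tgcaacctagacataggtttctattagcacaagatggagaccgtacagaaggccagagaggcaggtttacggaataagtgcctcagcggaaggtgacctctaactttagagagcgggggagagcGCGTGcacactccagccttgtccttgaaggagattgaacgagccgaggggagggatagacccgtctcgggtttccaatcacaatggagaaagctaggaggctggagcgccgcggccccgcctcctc
The upstream Ldha window holds 2 copies of CACGTG, which begin 145 and 48 bases before the start, and a further core 34 bases before it. The downstream Ldha window holds 1 core, GCGTG on the other strand, 59 bases before its start. Of the Ldha windows printed here, only the upstream one, which had no GENCODE match, holds ACGTG. Slc16a3 has ACGTG at 27 and 14 bases before its start, and Ldhb has 1 GCGTG, 126 bases before. These matches are descriptions of the letters, not binding sites. Counts over members used the 250 bases before each start. ACGTG or GCGTG was present for 15 of 17 glycolysis and lactate genes (88.2%). It was present for 13 of the 16 other members with a window (81.3%), against 61.0% of 10311 tested genes. The stricter ACGTG was present for 8 of the 17 (47.1%), for 4 of the 16 (25.0%) and for 25.0% of tested genes. Members had on average 1.55 windows per gene and tested genes 1.28, so that more bases per gene were searched among members. The sequence TGATGNAA, searched for ATF4, was in none of the 33 members' windows and in those of 2.41% of tested genes.

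**Figure D1:**
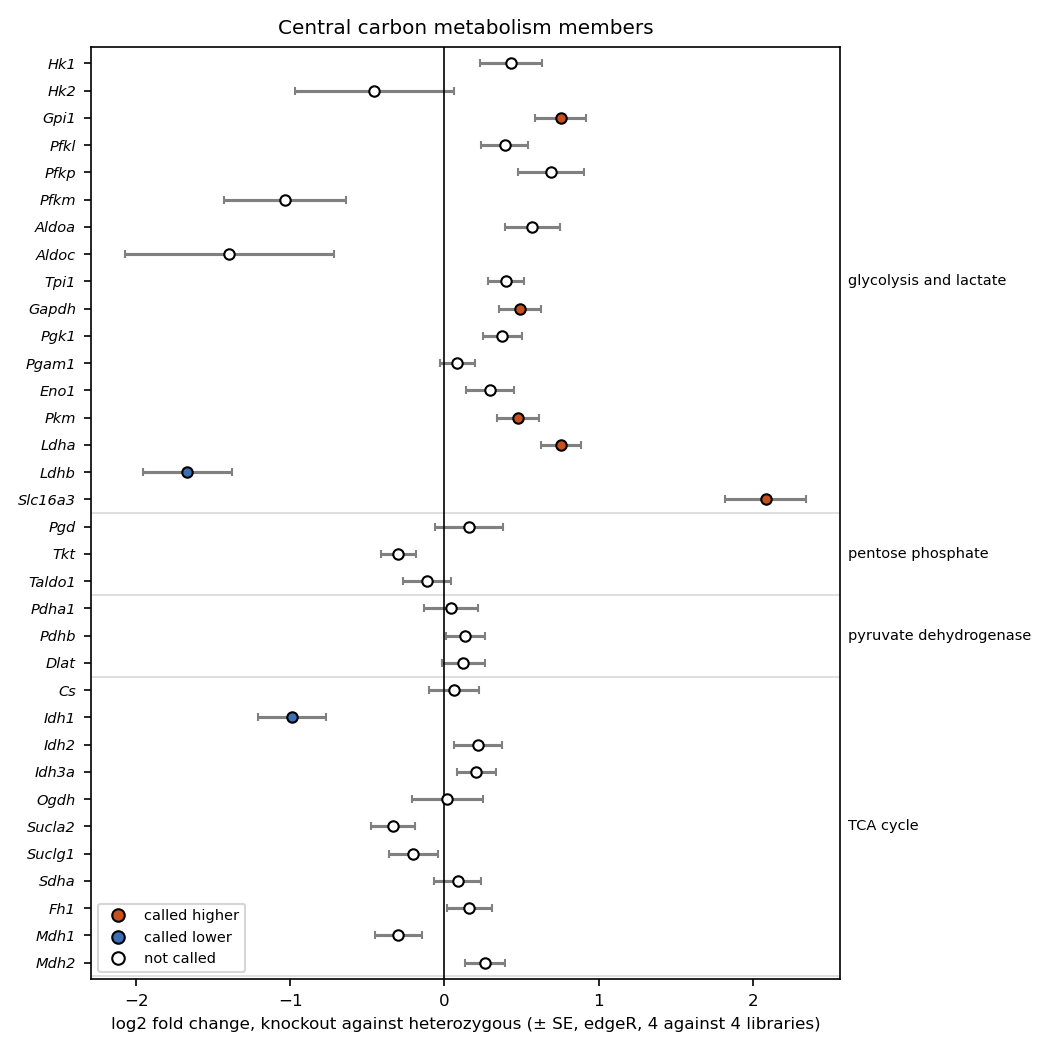
Log2 fold change, knockout against heterozygous, of all 34 members (points) with standard errors (bars), in pathway order, 4 against 4 libraries. Filled points are called members: Gpi1, Gapdh, Pkm, Ldha and Slc16a3 lie to the right of 0, and Ldhb and Idh1 to the left.

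Across the 34 members, 5 rose in knockout (Gpi1, Gapdh, Pkm, Ldha and Slc16a3) and 2 fell (Ldhb and Idh1), and 27 were not called. All increases were in glycolysis and lactate handling. Of all 13540 genes, 5.53% were called higher and 4.02% lower. Over all 34 members, the 5 increases stand against the first share and the 2 decreases against the second. Within the 17 glycolysis and lactate genes, the class that holds all increases, 5 rose and 1 fell. These counts only describe the chosen genes, and no test of the set was run. The groups did not overlap, with all knockout libraries higher, for 8 members (9.70% of all genes), and with all knockout libraries lower for 4 (7.90% of all genes). All 8 of the former were glycolysis and lactate genes. Some margins were narrow. For Eno1 the highest heterozygous library had 53.5 and the lowest knockout library 54.7 CPM. For Sucla2 the lowest heterozygous library had 111.6 and the highest knockout library 111.5 CPM.

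The classes differed in their medians. For glycolysis and lactate the median log2 fold change was 0.40 and 13 of 17 values were positive, against -0.03 over all tested genes. Pyruvate dehydrogenase had a median of 0.12, the TCA cycle 0.06 and the pentose phosphate pathway -0.11. Scaled by library size alone, which moved the median of all genes to -0.15, the class medians were 0.28 for glycolysis and lactate, -0.00130 for pyruvate dehydrogenase, -0.065 for the TCA cycle and -0.23 for the pentose phosphate pathway. Together the glycolysis and lactate genes took 0.801 ± 0.043% of all counts in the heterozygous and 1.04 ± 0.0743% in the knockout libraries, with ranges of 0.760 to 0.855% and 0.930 to 1.09% that did not overlap. The TCA class took 0.297 ± 0.0244% against 0.275 ± 0.0185%, the pentose phosphate class 0.0759 ± 0.00806% against 0.0643 ± 0.00889%, and pyruvate dehydrogenase 0.0319 ± 0.00302% against 0.0316 ± 0.00191%, each with overlapping libraries. These shares weigh abundant genes most. The mean log2 CPM over the glycolysis and lactate genes, which weighs each gene alike, did overlap (7.48 ± 0.066 against 7.63 ± 0.24). It was 7.41 to 7.56 in the heterozygous libraries and 7.30 to 7.83 in the knockout libraries, with knockout library 2 lowest of all.

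**Figure D2:**
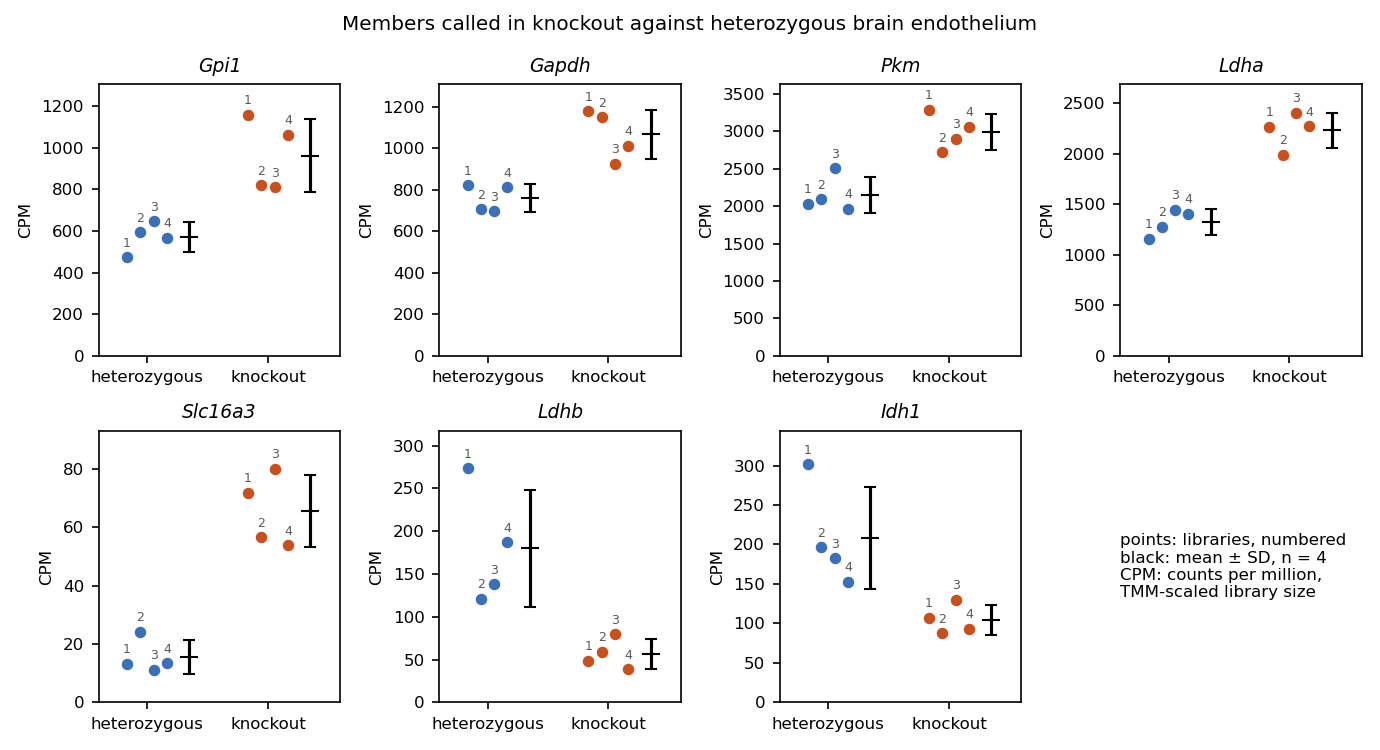
Level in CPM (y axis from 0) of the 7 called members in each library; points are libraries, numbered, and black marks give mean ± SD (n = 4). The groups are apart for all 7, for example for Slc16a3 at 11.2 to 24.2 CPM in the heterozygous and 54.0 to 80.1 CPM in the knockout libraries.

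The 2 largest fold changes of the 34 members were at the lactate step, an increase of Slc16a3 and a decrease of Ldhb. Slc16a3 encodes MCT4, a monocarboxylate transporter known for lactate export. Its level was 13.3, 24.2, 11.2 and 13.5 CPM in heterozygous libraries 1 to 4 and 71.8, 56.6, 80.1 and 54.0 CPM in knockout libraries 1 to 4. Every knockout library was above every heterozygous one. Slc16a3 rose from 15.5 ± 5.87 to 65.6 ± 12.5 CPM, a log2 fold change of 2.09 ± 0.26 or 4.24-fold (adjusted p = 0.0019), the largest increase among the members.

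Ldha encodes the A (muscle-type) subunit of lactate dehydrogenase, known for favouring the reduction of pyruvate to lactate. Its levels were 1160, 1279, 1449 and 1410 CPM across heterozygous libraries 1 to 4, against 2270, 1993, 2406 and 2274 CPM across knockout libraries 1 to 4. The lowest knockout library was well above the highest heterozygous one. Ldha rose 1.69-fold, from 1324 ± 132 to 2236 ± 174 CPM (log2 fold change 0.76 ± 0.13, adjusted p = 0.0071).

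Ldhb encodes the B (heart-type) subunit, known for favouring the reverse reaction. Its levels were 274, 121, 138 and 187 CPM in heterozygous libraries 1 to 4 and 48.9, 59.2, 79.6 and 39.0 CPM in knockout libraries 1 to 4. Heterozygous library 1, which also had the highest neuronal marker sum, was highest, and the groups did not overlap. Ldhb fell 3.18-fold, from 180 ± 68.5 to 56.7 ± 17.4 CPM (log2 fold change -1.67 ± 0.29, adjusted p = 0.0068). Ldha, Ldhb and Slc16a3 remained called when each of the 8 libraries was left out in turn.

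Per kilobase of the principal transcript, Ldha was above Ldhb in both groups, at 750 ± 74.5 against 138 ± 52.5 CPM per kb in the heterozygous and 1266 ± 98.3 against 43.5 ± 13.3 in the knockout libraries. Slc16a3 went from 3.59 ± 1.35 to 15.1 ± 2.87 CPM per kb and was below Ldha and Ldhb in both groups. The ratio of Ldha to Ldhb counts within a library was 4.24, 10.6, 10.5 and 7.54 in heterozygous libraries 1 to 4 and 46.4, 33.6, 30.2 and 58.3 in knockout libraries 1 to 4. These values do not overlap, and the log2 ratio differed by 2.40 (2.95 ± 0.62 against 5.35 ± 0.43; exact two-sided permutation test, p = 0.0286, the smallest that 4 against 4 libraries can give; adjusted p = 0.05 over 7 ratios, which is at and not under the threshold).

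The upper part of glycolysis, from glucose to triose phosphates, had 1 call. Gpi1, glucose-6-phosphate isomerase, had 474, 594, 647 and 568 CPM in heterozygous libraries 1 to 4 and 1160, 819, 809 and 1063 CPM in knockout libraries 1 to 4. Knockout libraries 1 and 4 were the highest, and the groups did not overlap. Gpi1 rose 1.69-fold (log2 fold change 0.75 ± 0.16, adjusted p = 0.0190), but was not called without knockout library 1 or without knockout library 4 (highest adjusted p over the 8 fits 0.0594).

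The phosphofructokinases, which commit the sugar to glycolysis, did not pass the test. The liver-type Pfkl had a log2 fold change of 0.39 ± 0.15 (adjusted p = 0.133), the platelet-type Pfkp one of 0.69 ± 0.21 (adjusted p = 0.0677) and the muscle-type Pfkm one of -1.03 ± 0.40 (adjusted p = 0.131). Pfkl was the most abundant of the 3 per length in both groups (70.1 ± 9.23 and 91.9 ± 12.3 CPM per kb), followed by Pfkp (28.6 ± 6.82 and 46.1 ± 9.66) and Pfkm (10.8 ± 4.65 and 5.23 ± 2.13). Among the hexokinases, which trap glucose in the cell, Hk1 went from 118 ± 23.1 to 159 ± 35.1 CPM (log2 fold change 0.43 ± 0.20, adjusted p = 0.204) with overlapping libraries. Hk2 was near the lower end of the measured range, at 4.75 ± 1.23 and 3.45 ± 2.09 CPM (adjusted p = 0.626).

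Aldolase cleaves fructose bisphosphate into triose phosphates. Aldoa, the widely expressed form, had 668, 695, 720 and 918 CPM in heterozygous libraries 1 to 4 and 1221, 796, 1187 and 1256 CPM in knockout libraries 1 to 4, where knockout library 2 lay within the heterozygous range. Its log2 fold change of 0.57 ± 0.18 did not pass (adjusted p = 0.0684). Aldoc, the form known from brain, ranged from 20.9 to 74.1 CPM in the heterozygous and from 2.18 to 37.8 CPM in the knockout libraries (log2 fold change -1.40 ± 0.68, adjusted p = 0.224). Tpi1, triosephosphate isomerase, had 467 to 520 CPM in the heterozygous and 637 to 713 CPM in the knockout libraries without overlap, and missed the threshold (log2 fold change 0.40 ± 0.12, adjusted p = 0.0567).

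The lower part of glycolysis, from triose phosphate to pyruvate, had 2 calls close to the threshold. Gapdh, glyceraldehyde-3-phosphate dehydrogenase and a common reference gene, had 822, 706, 695 and 812 CPM in heterozygous libraries 1 to 4 and 1178, 1150, 926 and 1011 CPM in knockout libraries 1 to 4. The groups did not overlap, and Gapdh rose 1.41-fold (log2 fold change 0.49 ± 0.14, adjusted p = 0.0459). Pkm, pyruvate kinase, had 2032, 2090, 2502 and 1965 CPM in heterozygous libraries 1 to 4 and 3285, 2719, 2901 and 3057 CPM in knockout libraries 1 to 4. It rose 1.39-fold without overlap of the groups (log2 fold change 0.48 ± 0.13, adjusted p = 0.0490).

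Both calls depended on single libraries and on the scaling, and neither was made with RLE, library-size or upper quartile scaling. When 1 library was left out, Gapdh was called in 1 of 8 fits (only without knockout library 3; adjusted p 0.0385 to 0.124 over the 8) and Pkm in 2 (without heterozygous library 3 or knockout library 2; 0.0471 to 0.127). Their fold changes stayed between 0.45 and 0.57 (Gapdh) and between 0.44 and 0.56 (Pkm) on the log2 scale. Phosphoglycerate kinase, Pgk1, had 249 to 308 CPM in the heterozygous and 345 to 403 CPM in the knockout libraries without overlap, but was not called (log2 fold change 0.38 ± 0.13, adjusted p = 0.0903). Phosphoglycerate mutase, Pgam1, had 513 ± 21.9 against 543 ± 19.6 CPM with overlap (log2 fold change 0.08 ± 0.11, adjusted p = 0.699).

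Enolase and several other glycolytic genes share sequence with near copies elsewhere in the genome, and the authors' handling of such reads was not given in the sources used here. Of all 50-base stretches of the Eno1 transcript, 72.2% also occur in transcripts of other genes, most often Eno1b. Eno1b had 92.6, 100.1, 14.4 and 0.555 CPM in heterozygous libraries 1 to 4 and 107.5, 271, 0.911 and 95.3 CPM in knockout libraries 1 to 4, from under 1 CPM to over 100 CPM within each group. Eno1 itself had 51.3 to 53.5 CPM in the heterozygous and 54.7 to 80.0 CPM in the knockout libraries (log2 fold change 0.30 ± 0.15, adjusted p = 0.258), and with Eno1b added, an alternative chosen after seeing the data, 0.81 ± 0.49 (adjusted p = 0.3296). The level of enolase is therefore uncertain. The shared part was 82.5% for Gapdh, 68.0% for Pgk1, 41.5% for Pgam1, 34.4% for Pkm, 27.0% for Ldhb, 25.3% for Gpi1 and 17.1% for Ldha, and 0 for Slc16a3 and Idh1.

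**Figure D3:**
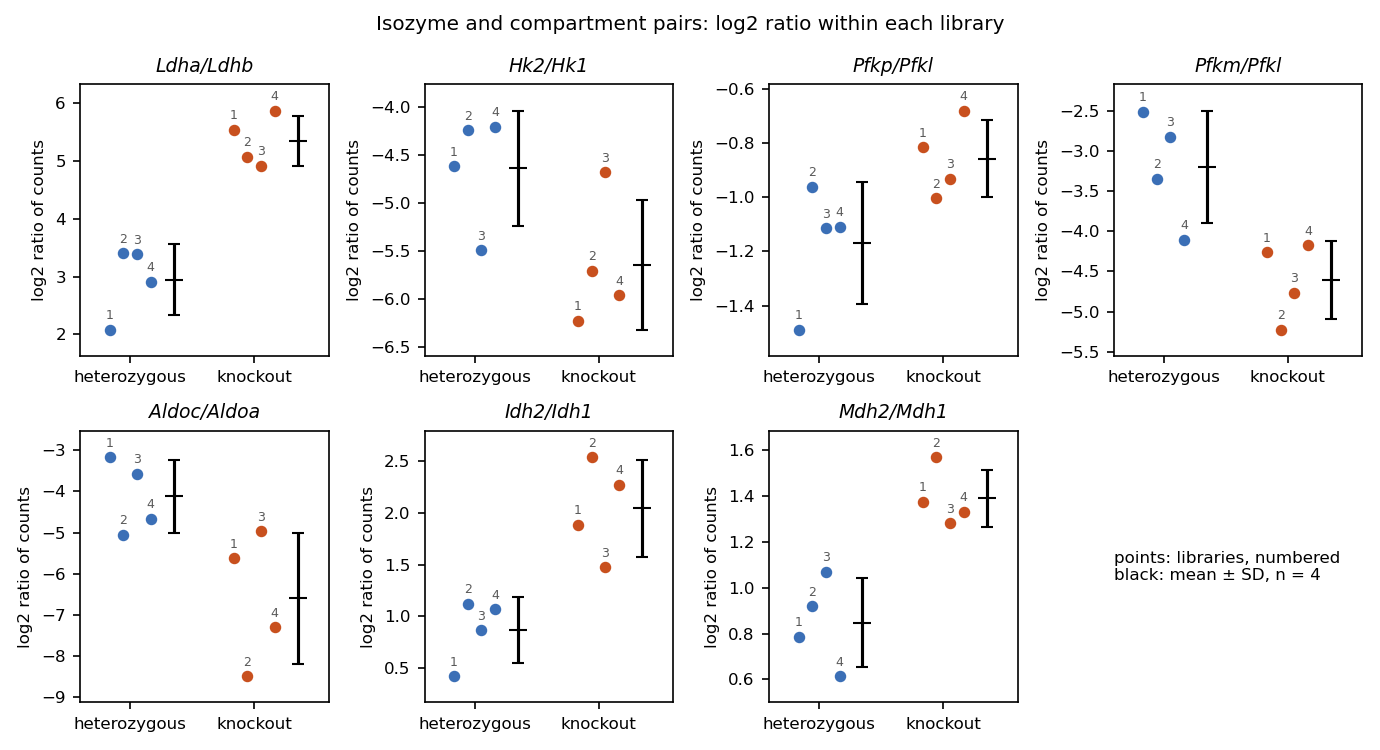
Log2 ratio of the counts of 7 pairs of genes within each library (points, numbered; black marks give mean ± SD, n = 4). Ldha/Ldhb, Pfkm/Pfkl, Idh2/Idh1 and Mdh2/Mdh1 do not overlap between the groups, and Hk2/Hk1, Pfkp/Pfkl and Aldoc/Aldoa do.

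Ratios of related enzymes within a library do not depend on its scaling. Besides Ldha to Ldhb, the log2 ratio of Pfkm to Pfkl was lower in all knockout libraries (-3.20 ± 0.70 against -4.61 ± 0.49), and those of Idh2 to Idh1 (0.87 ± 0.32 against 2.04 ± 0.47) and Mdh2 to Mdh1 (0.85 ± 0.19 against 1.39 ± 0.13) were higher in all of them. Each of these had p = 0.0286 (exact two-sided permutation test) and an adjusted p of 0.05 over the 7 ratios, at and not under the threshold. Hk2 to Hk1 (difference -1.0), Pfkp to Pfkl (0.31) and Aldoc to Aldoa (-2.48) overlapped between the groups (exact permutation p = 0.0571 each, adjusted p = 0.0571).

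The 3 pentose phosphate members were not called. Transketolase, Tkt, which moves carbon between sugar phosphates, came nearest, with 255, 235, 232 and 228 CPM in heterozygous libraries 1 to 4 and 194, 201, 190 and 187 CPM in knockout libraries 1 to 4. The groups did not overlap, and the log2 fold change was -0.30 ± 0.11 (adjusted p = 0.130). Transaldolase, Taldo1, had 361, 359, 320 and 383 CPM in heterozygous libraries 1 to 4 and 301, 385, 374 and 256 CPM in knockout libraries 1 to 4 (log2 fold change -0.11 ± 0.15, adjusted p = 0.696). Pgd, 6-phosphogluconate dehydrogenase of the NADPH-yielding branch, had a log2 fold change of 0.16 ± 0.22 (adjusted p = 0.696) with overlapping libraries.

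The pyruvate dehydrogenase members, which link glycolysis to the TCA cycle, were not called either. Pdhb, the E1 beta subunit, had 167, 153, 164 and 151 CPM in heterozygous libraries 1 to 4 and 168, 190, 151 and 188 CPM in knockout libraries 1 to 4 (log2 fold change 0.14 ± 0.13, adjusted p = 0.554). Pdha1, the E1 alpha subunit, had 80.5, 90.5, 103 and 73.5 CPM in heterozygous libraries 1 to 4 and 94.3, 65.0, 97.9 and 100.4 CPM in knockout libraries 1 to 4 (log2 fold change 0.04 ± 0.18, adjusted p = 0.912). Dlat, the E2 subunit, had a log2 fold change of 0.12 ± 0.14 (adjusted p = 0.626). All 3 overlapped between the groups.

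In the TCA class, 1 of 11 members was called, and it is not an enzyme of the mitochondrial cycle itself. Idh1, the cytosolic and peroxisomal NADP-dependent isocitrate dehydrogenase, had 301, 196, 182 and 153 CPM in heterozygous libraries 1 to 4 and 107, 87.8, 130 and 93.5 CPM in knockout libraries 1 to 4. The groups did not overlap, and heterozygous library 1 was highest, as for Ldhb. Idh1 fell 1.99-fold, from 208 ± 64.8 to 105 ± 18.9 CPM (log2 fold change -0.99 ± 0.22, adjusted p = 0.0198), and was not called without knockout library 1 or without knockout library 4 (highest adjusted p over the 8 fits 0.0615).

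The 10 other members of the class had log2 fold changes between -0.33 and 0.26. Sucla2, the ATP-forming succinyl-CoA ligase subunit, was lower in all knockout libraries, but by a narrow margin (111.6 to 145 against 86.3 to 111.5 CPM). Its log2 fold change was -0.33 ± 0.14 (adjusted p = 0.169). Mdh1, the cytosolic malate dehydrogenase, had 318 ± 60.4 against 258 ± 10.4 CPM (-0.30 ± 0.15, adjusted p = 0.246), and its mitochondrial counterpart Mdh2 had 565 ± 42.2 against 678 ± 76.4 CPM (0.26 ± 0.13, adjusted p = 0.236). The mitochondrial NADP-dependent Idh2 had 371 ± 52.9 against 430 ± 65.2 CPM (0.22 ± 0.16, adjusted p = 0.424), and Idh3a, the catalytic subunit of the NAD-dependent enzyme, 118 ± 11.2 against 136 ± 4.79 CPM (0.21 ± 0.13, adjusted p = 0.334). Citrate synthase, Cs, had a log2 fold change of 0.06 ± 0.16, Ogdh of the oxoglutarate dehydrogenase complex 0.02 ± 0.23, Suclg1, the shared subunit of succinyl-CoA ligase, -0.20 ± 0.16, succinate dehydrogenase subunit Sdha 0.08 ± 0.15 and fumarase Fh1 0.16 ± 0.15. All 5 overlapped between the groups.

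**Figure D4:**
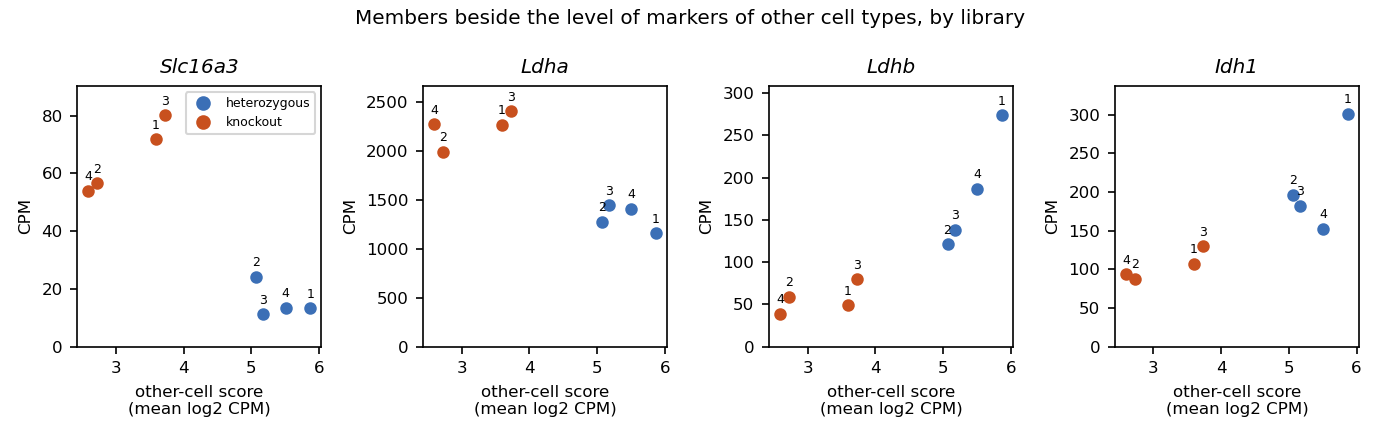
Level in CPM (y axis from 0) of Slc16a3, Ldha, Ldhb and Idh1 in each library (numbered points) against the other-cell score, the mean log2 CPM of 5 marker lists. Heterozygous libraries lie at scores of 5.07 to 5.87 and knockout libraries at 2.59 to 3.73, so genotype and score are apart in all 8 libraries.

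The other-cell score and the genotype cannot be told apart in these libraries, since the score does not overlap between the groups. Among the heterozygous libraries alone, Ldhb was highest in library 1 and lowest in library 2, the libraries with the highest and lowest score. Idh1 was highest in library 1 too, but lowest in library 4, which had a higher score (5.51) than libraries 2 (5.07) and 3 (5.17). Among the knockout libraries, Ldhb (79.6 CPM) and Idh1 (130 CPM) were both highest in library 3, which had the highest score (3.73). Slc16a3 (80.1 CPM) and Ldha (2406 CPM), which rose, were highest in that knockout library too. Within the heterozygous group, Slc16a3 was highest in library 2 (24.2 CPM) and Ldha in library 3 (1449 CPM). Ldhb was lowest in knockout library 4 (score 2.59), and Idh1 in knockout library 2 (2.73). Whether other cells contribute to these levels was not tested. When the score entered the model, 0 members were called in either direction by edgeR, as were 0 of all 13540 genes. At an unadjusted p under 0.05, 2 members were higher, 0 lower, and 784 of all genes passed. With the score, the log2 fold change was 2.40 ± 0.71 for Slc16a3 (adjusted p = 0.739), 0.81 ± 0.40 for Ldha (0.864), 0.48 ± 0.48 for Gpi1 (0.987), 0.62 ± 0.42 for Gapdh (0.935) and 0.45 ± 0.41 for Pkm (0.971). It was 0.05 ± 0.64 for Ldhb (0.998) and 0.12 ± 0.52 for Idh1 (0.995).

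A further 65 genes of the pathway that are not members were listed from the same reactions, and 56 of them were tested. Of these, 4 rose (Slc2a8, Adpgk, Pdk1 and Pck2) and 2 fell (Bsg and Gpd2), beside the shares of 5.53% and 4.02% over all genes, and their median log2 fold change was -0.03, beside -0.03 over all genes. By sub-list, 1 of 6 transport genes rose and 1 fell, 1 of 9 glycolysis genes rose and 1 fell, 1 of 12 pyruvate entry genes rose and 1 of 9 genes of reactions beside the TCA cycle rose. None of 6 regulators of glycolysis, 5 pentose phosphate genes or 9 TCA genes was called.

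**Figure D5:**
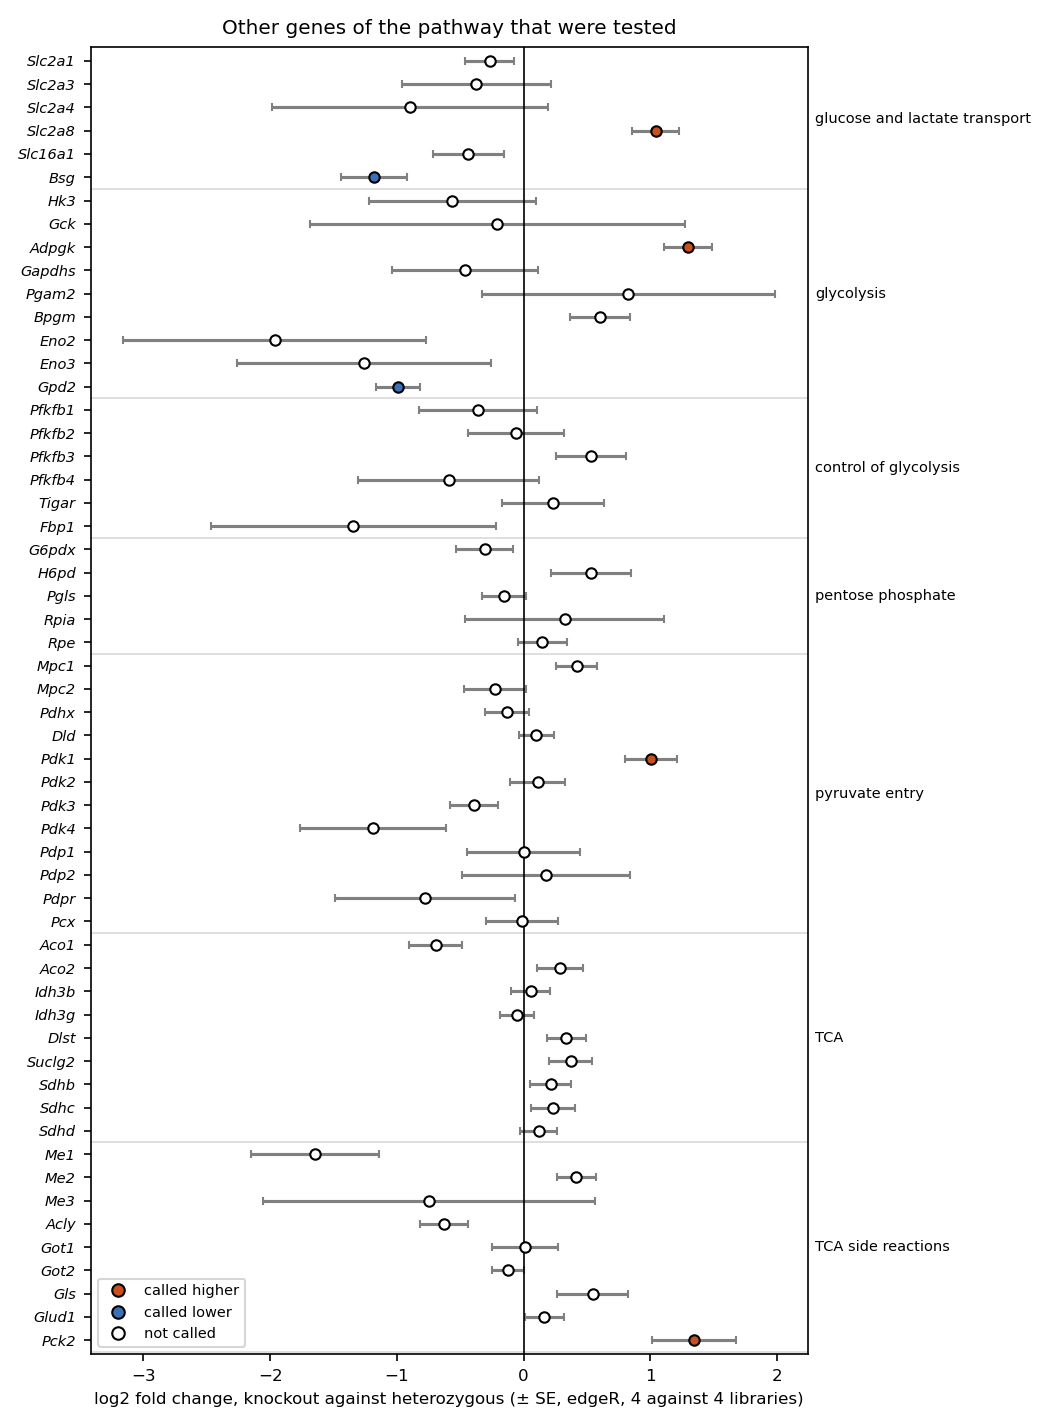
Log2 fold change, knockout against heterozygous, of the 56 tested genes of the pathway that are not members (points) with standard errors (bars), by sub-list. Filled points are called genes: Slc2a8, Adpgk, Pdk1 and Pck2 lie to the right of 0, and Bsg and Gpd2 to the left.

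Among the transport genes, Slc2a8, an intracellular glucose transporter, had 27.7, 28.8, 40.3 and 29.2 CPM in heterozygous libraries 1 to 4 and 78.9, 57.1, 57.2 and 66.7 CPM in knockout libraries 1 to 4. It rose 2.06-fold (log2 fold change 1.04 ± 0.18, adjusted p = 0.0076). Bsg, basigin, the glycoprotein that brings monocarboxylate transporters to the cell surface, had 2161, 2523, 4578 and 4823 CPM in heterozygous libraries 1 to 4 and 1493, 1581, 1870 and 1277 CPM in knockout libraries 1 to 4. Bsg fell 2.26-fold (log2 fold change -1.18 ± 0.26, adjusted p = 0.0203), the opposite direction to Slc16a3, and was not called without heterozygous library 3, knockout library 1 or knockout library 4. The main glucose transporter of the blood-brain barrier, Slc2a1, was not called (4594 ± 1086 against 3821 ± 582 CPM, log2 fold change -0.27 ± 0.19, adjusted p = 0.424). Neither was Slc16a1, which encodes the transporter MCT1 (33.1 ± 13.7 against 24.4 ± 5.13 CPM, -0.44 ± 0.28, adjusted p = 0.359).

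Adpgk, an ADP-dependent glucokinase, rose 2.46-fold, from 26.4 to 41.2 CPM in heterozygous to 73.8 to 104 CPM in the knockout libraries (log2 fold change 1.30 ± 0.19, adjusted p = 0.0032). Gpd2, the mitochondrial glycerol-3-phosphate dehydrogenase of a shuttle that carries cytosolic reducing equivalents into the respiratory chain, fell 1.98-fold, from 95.5 to 148 CPM to 55.6 to 76.1 CPM (-0.99 ± 0.17, adjusted p = 0.0071). Pdk1, a kinase that inhibits pyruvate dehydrogenase, rose 2.01-fold, from 21.7 to 33.6 CPM to 42.1 to 66.3 CPM (1.0 ± 0.21, adjusted p = 0.0144). The other 3 kinases of this family were not called: Pdk2 at 0.11 ± 0.22, Pdk3 at -0.39 ± 0.19 and Pdk4 at -1.19 ± 0.58 on the log2 scale. Pck2, the mitochondrial phosphoenolpyruvate carboxykinase, rose 2.54-fold, from 25.6 to 59.5 CPM to 67.5 to 187 CPM (1.35 ± 0.33, adjusted p = 0.0311), and lost its call without heterozygous library 1 or 2 or knockout library 1 or 4. The groups did not overlap for any of these 4 genes, and Adpgk, Gpd2, Pdk1 and Slc2a8 stayed called with each library left out in turn.

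In the sub-lists with no call, the values of the 2 genes with the smallest p were as follows. Pfkfb3, whose product makes the activator of phosphofructokinase, had a log2 fold change of 0.53 ± 0.28 (adjusted p = 0.259), and Fbp1, which runs the reverse step of gluconeogenesis, one of -1.34 ± 1.13 at 0 to 1.41 CPM in single libraries (adjusted p = 0.495). In the pentose phosphate list, H6pd had 0.53 ± 0.32 (adjusted p = 0.324) and G6pdx, the entry enzyme of the pathway, -0.31 ± 0.22 (adjusted p = 0.424). In the TCA list, the cytosolic aconitase Aco1 had -0.69 ± 0.21 (adjusted p = 0.0644) and Dlst of the oxoglutarate dehydrogenase complex 0.34 ± 0.15 (adjusted p = 0.196).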

How the data were processed

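The authors deposited raw counts per gene symbol for 8 libraries made with SMART-Seq v4 and Nextera XT, single-end reads of 50 nucleotides per the labels' protocols. TopHat2 (version 0.7), Cufflinks (version 2.2.1) and mm10 are listed per the submitters' processing notes. The counter, whether it used strand and how it handled multi-mapping reads were not given in the sources used here.

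From these counts, genes were filtered with filterByExpr (edgeR 4.0.16, minimum count 10, minimum total 15, R 4.3.3), which kept 13540 of 24421 rows with 99.9% of the counts. Libraries were scaled with TMM factors and the 4 knockout were tested against the 4 heterozygous libraries by edgeR's quasi-likelihood F-test (robust, no covariate), with Benjamini-Hochberg adjustment over all tested genes. The standard error is the size of the log2 fold change divided by the square root of F, and log2 CPM used a prior count of 2. Ratios added 0.5 to each count and used an exact permutation test over 70 arrangements. Lengths come from GENCODE vM21 principal transcripts, and promoter windows from RefSeq (33 of 34 members matched). No 2 libraries of a genotype agreed within counting noise (lowest chi-square per degree of freedom 29.4). All members are named, and of the other pathway genes the called ones or, in a list with none, the 2 with the smallest p; Slc2a1, Slc16a1, Pdk2, Pdk3 and Pdk4 were added after their values were seen. The members, lists, tests and alternatives were chosen with earlier results of these data known. Alternatives were other scalings, filters and tools (DESeq2 1.42.0, limma 3.58.1), a replicate block, an other-cell covariate, other thresholds and left-out libraries.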

Additional observations from a re-analysis of the deposited data

Results flagged for a closer look

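In 6 of 94 groups of 4 libraries examined (47 genes or ratios, each in both genotypes), 1 library stood apart from the other 3 by Dixon's criterion, and chance alone gives about 1 in 20. Knockout library 2 stood low for Hk1 at 106.88 CPM (others 168.72 to 181.43), for Aldoa at 795.77 CPM (others 1187 to 1255.5) and for Pdk1 at 42.071 CPM (others 63.323 to 66.281). Without this library Aldoa was called and Hk1 was not. Knockout library 3 stood high for Tpi1 at 712.87 CPM (others 637.16 to 647.07). Heterozygous library 4 stood low for Eno1 at 51.27 CPM (others 53.206 to 53.53), in a group whose values all lay close together. Heterozygous library 3 stood high for Slc2a8 at 40.34 CPM (others 27.727 to 29.186).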

How the results depend on the processing

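The number of members called higher (5) became 3 with RLE size factors, with library size alone and with upper quartile scaling, 9 with DESeq2, 9 at an adjusted p under 0.1, 2 at one under 0.01, 0 with the other-cell score as covariate and 1 without heterozygous library 2 and knockout library 1. Over the fits that left out 1 library it ranged from 2 to 6, with 2 without knockout library 1 or 4 and 3 without heterozygous library 1 or 2. The number called lower (2) became 0 with the covariate, 1 at an adjusted p under 0.01, 1 without heterozygous library 1 and knockout library 2, and 1 without heterozygous library 2 and knockout library 1, and ranged from 1 to 2 with single libraries left out (1 without knockout library 1 or 4). DESeq2 also called Pfkp, Aldoa, Tpi1 and Pgk1 higher and Tkt lower. Ldha was not called without heterozygous library 2 and knockout library 1 (adjusted p = 0.0723), while Slc16a3 and Ldhb were. Library size alone moved the median of all genes from -0.03 to -0.15 and the calls over all genes from 749 higher and 544 lower to 539 and 725. Over all genes DESeq2 called 1110 higher and 1119 lower, the replicate block 433 and 435, the fit without heterozygous library 2 and knockout library 1 180 and 120, and the fits without a single library 371 to 715 and 208 to 640.

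Of the other pathway genes, 4 called higher became 0 with the covariate, 1 without heterozygous library 2 and knockout library 1, and 2 at an adjusted p under 0.01 (3 to 4 with single libraries left out). The 2 called lower became 4 with library size alone, 4 with upper quartile scaling, 5 with DESeq2, 5 at an adjusted p under 0.1, 1 at one under 0.01, 0 with the covariate and 0 without heterozygous library 2 and knockout library 1 (1 to 3 with single libraries left out). The covariate fit cannot separate score from genotype, as the score does not overlap between the groups. In it the log2 fold change was 0.050 ± 0.64 for Ldhb, 0.12 ± 0.52 for Idh1 and -0.35 ± 0.80 for Pck2. For Aldoc, not called in either fit, it was 2.81 ± 1.19. The class medians were 0.48 for glycolysis and lactate, 0.18 for pentose phosphate, -0.22 for pyruvate dehydrogenase and -0.30 for the TCA cycle. The pyruvate dehydrogenase median was -0.00130 with library size alone, and the TCA median -0.065 with library size alone, -0.016 with upper quartile scaling and -0.049 to 0.14 with single libraries left out. The glycolysis and lactate median stayed at 0.37 to 0.46 with single libraries left out. The cause of these shifts was not tested.

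Deviations from the group means of same-numbered libraries correlated at 0.0584, 0.211, -0.0459 and 0.0212, and only number 2 correlated best with its own. No label says that a number marks a shared litter or day, and these values do not settle whether the libraries are paired. With the replicate block, 2 members were called higher (Ldha and Slc16a3) and 3 lower (Aldoc, Ldhb and Idh1). The 7 ratios kept their direction under the alternatives run, with paired exact adjusted p of 0.175 to 0.25, where 4 pairs cannot reach 0.05. Counting depth limits Hk2 most, with 23 counts in 1 library.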
